A study of Mus musculus with 4 samples.

Results

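Glycam1 and 8 genes of leukocyte homing and of leukocytes at large were followed in whole normal skeletal muscle. The members were named as a set, and each was found through the probe sets that the platform annotation assigns to it alone. The 9 members had 13 such probe sets, out of 12393 genes measured, and the probe set with the highest mean stood for the gene. All 4 arrays carried RNA of bulk normal muscle from wild type mice of a mixed 129S4/SvJae and C57BL/6 background, with no treatment, age or sex given in the sources used here. Their titles are skm4, skm5, nm7 and nm8, and the labels do not say what the prefixes skm and nm stand for, so the prefix was handled as a possible batch and not as a study group. The wider study, on rhabdomyosarcoma started in Pax7-expressing muscle progenitor cells, also covers tumours, which were not analysed here. The members were chosen by measured values of these same arrays, with Glycam1, Ptprc, Coro1a, Cd53 and Limd2 among the genes of widest spread and Lpxn among those that differed most between the prefixes. Their values are therefore given as a description, with no test.

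Lymphocytes leave the blood in lymph nodes through high endothelial venules, whose lining cells carry mucin-like proteins decorated with sulfated sugars. Lymphocytes bind these sugars and slow down until integrins hold them. GlyCAM-1, CD34 and the gut addressin MAdCAM-1 are such carriers, and the sulfotransferase encoded by Chst4 adds sulfate to their sugars. The remaining members are made mainly by leukocytes themselves, among them CD45, the phosphatase found on nearly every nucleated blood cell. Resting skeletal muscle holds few leukocytes, and its own vessels are not high endothelial venules. Values below are log2 expression values as made by robust multi-array averaging (RMA), where a step of 1 is a 2-fold change, and the number of arrays limits their precision. In bulk samples, fewer cells of a type and less RNA per cell cannot be told apart.

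The arrays held skeletal muscle by its markers, and some controls divided the prefixes. Acta1, the actin of skeletal muscle fibres, read 14.69 in skm4 and 14.64 in skm5, against 14.70 in nm7 and 14.54 in nm8. The array medians lay between 7.26 and 7.30. The 3 control probe sets for 18S ribosomal RNA were lower in both skm arrays, at differences of -2.24, -1.43 and -1.28. The probe set at the 5′ end of beta-actin was higher by 1.21, while those at its middle and 3′ end differed by -0.0005 and 0.18. For Gapdh the 5′, middle and 3′ probe sets differed by 0.25, 0.13 and 0.05. The part of these differences in the results that follow was not tested. Control probe sets for the bacterial transcript TrpnX, which mouse RNA lacks, read between 3.40 and 4.05 and mark the dim end of the scale.

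The addressin genes did not move together. Glycam1, which encodes a secreted mucin of high endothelial venules and is also known from the lactating mammary gland, read 4.59 in skm4 and 7.77 in skm5, against 9.69 in nm7 and 10.14 in nm8. Both skm arrays lay below both nm arrays, and the skm arrays were themselves 9.08-fold apart. Its level in skm4 was 2.50% of the nm mean, and in skm5 it was 22.7%. The value in skm4 was 0.66 above the brightest TrpnX probe set on that array, so the size of the difference is limited by the background there. The skm minus nm difference was -3.73 ± 0.98 (SE, n = 2 per prefix). Without skm4 it was -2.14, and without skm5 it was -5.32.

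Madcam1, the addressin of gut venules, read 6.29 in skm4 and 5.68 in skm5, against 5.55 in nm7 and 5.86 in nm8. The prefixes overlapped, and skm4, the lowest array for Glycam1, was the highest for Madcam1. Its difference of 0.28 ± 0.23 was -0.02 without skm4. Madcam1 was also rather dim, at percentile 23.5 of level among all genes, and no less than 1.64 above the TrpnX probe sets. Chst4, the sulfotransferase of high endothelial venules, read 4.97 in skm4 and 5.07 in skm5, against 4.52 in nm7 and 4.58 in nm8. It was the 1 member that was higher in both skm arrays, by 0.47 ± 0.12, and it was dim, at no less than 0.53 above the TrpnX probe sets.

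**Figure D1:**
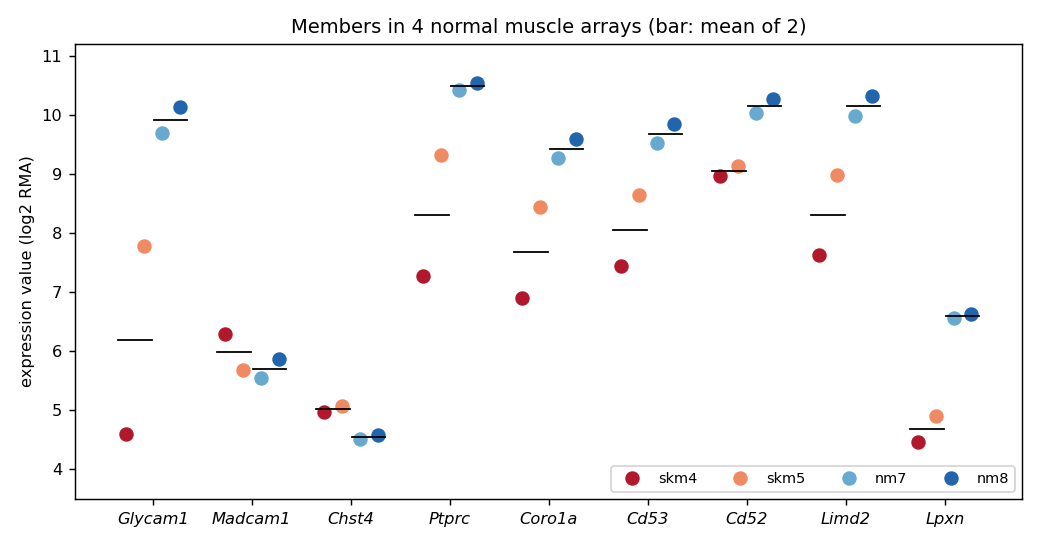
Expression value (log2 RMA, vertical axis) of each of the 9 members (horizontal axis) on the 4 arrays, 1 point per array, with a bar at the mean of the 2 arrays of a prefix. For 7 members both skm points lie below both nm points, with Glycam1 spread from 4.59 to 10.14, while Madcam1 overlaps and Chst4 is higher in skm.

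The promoters of both addressins are shown because these genes serve the same step and read differently here. The sequences are the 250 bases before the RefSeq start site in GRCm38.p6, 5′ to 3′ on the strand of the gene, with motif matches in capitals. Glycam1 lies on the minus strand at chr15:103565082-103565331, and Madcam1 on the plus strand at chr10:79664309-79664558.
Glycam1: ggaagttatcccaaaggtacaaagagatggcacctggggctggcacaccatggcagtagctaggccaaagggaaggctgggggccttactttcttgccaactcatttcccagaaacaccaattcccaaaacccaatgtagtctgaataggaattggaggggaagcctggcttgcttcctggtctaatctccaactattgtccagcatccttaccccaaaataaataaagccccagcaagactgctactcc
Madcam1: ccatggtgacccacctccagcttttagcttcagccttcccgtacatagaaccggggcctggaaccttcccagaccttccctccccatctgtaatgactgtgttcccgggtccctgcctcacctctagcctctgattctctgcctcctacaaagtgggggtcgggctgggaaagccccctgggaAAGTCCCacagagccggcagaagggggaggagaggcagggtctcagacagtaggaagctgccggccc
Searched on both strands were GAGGAA, a core bound by the myeloid and lymphoid factor PU.1, GGGACTT, the first letters of a classical NF-kB site, and the TATA box TATAAA. The Madcam1 window held 1 match to GGGACTT, on the strand opposite to the gene, from 67 to 61 bases before the start site, a match found in 4.65% of all 32851 promoter windows. The Glycam1 window held none of these letters. The motifs were chosen with the sequences in view, and a match is not a shown binding site.

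The 6 leukocyte members were lower in both skm arrays, each with the order nm8, nm7, skm5 and skm4 from high to low. Counting Glycam1, 7 of 9 members were lower in skm with no overlap between the prefixes, as were 28.6% of all genes. With Chst4, which was higher, 8 of 9 had no overlap, as had 54.4% of all genes. The same 7 had a range over 1, against 5.98% of all genes, and the same order, against 8.16% of all genes. Since the members were picked with these values known, these counts describe them and support nothing. The median skm minus nm difference was -1.75 over the 9 members and -0.003 over all genes.

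Ptprc, which encodes CD45, read 7.28 in skm4 and 9.33 in skm5, against 10.42 in nm7 and 10.54 in nm8. The nm arrays were close together and skm4 stood well below skm5, at a 4.14-fold distance. Its skm minus nm difference was -2.18 ± 0.63 (SE, n = 2 per prefix). Coro1a encodes coronin 1A, which binds actin in leukocytes and is needed for T cells to leave the thymus and survive. It read 6.90 in skm4 and 8.44 in skm5, against 9.27 in nm7 and 9.59 in nm8. Cd53, a tetraspanin of leukocytes, read 7.44 in skm4 and 8.65 in skm5, against 9.52 in nm7 and 9.85 in nm8. Both genes repeated the spacing of Ptprc at a smaller size, with differences of -1.75 ± 0.49 and -1.64 ± 0.39.

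Limd2, a LIM domain protein gene, read 7.62 in skm4 and 8.99 in skm5, against 9.97 in nm7 and 10.32 in nm8. The prefixes did not overlap, and skm4 was again the lowest. Cd52, which encodes a short lipid-anchored glycopeptide of lymphocytes, read 8.96 in skm4 and 9.13 in skm5, against 10.03 in nm7 and 10.28 in nm8. Its skm arrays stood close together, 1.13-fold apart. Lpxn, which encodes leupaxin, a relative of the adhesion adaptor paxillin in leukocytes, read 4.47 in skm4 and 4.90 in skm5, against 6.56 in nm7 and 6.63 in nm8. Each pair was tight, but in skm4 the value was only 0.54 above the TrpnX probe sets, so this difference too is limited by the background.

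Set against the nm mean, Glycam1 and each of the 6 leukocyte members stood lower in skm4 than in skm5. In skm5 the 6 leukocyte members stood at 30.8% to 50.7% of the nm mean with a median of 46.8%. All but Lpxn, the lowest, lay between 44.8% and 50.7%. In skm4 they stood at 10.8% for Ptprc, 17.4% for both Coro1a and Limd2, 21.2% for Cd53, 22.9% for Lpxn and 43.8% for Cd52, with a median of 19.3%. Glycam1 was below this span in both arrays. For Limd2 the percentages are from its brightest probe set, and its others gave smaller differences, of -0.95 and -0.55. Madcam1 stood at 149.6% in skm4 and 98.4% in skm5, and Chst4 at 134% and 143%.

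**Figure D2:**
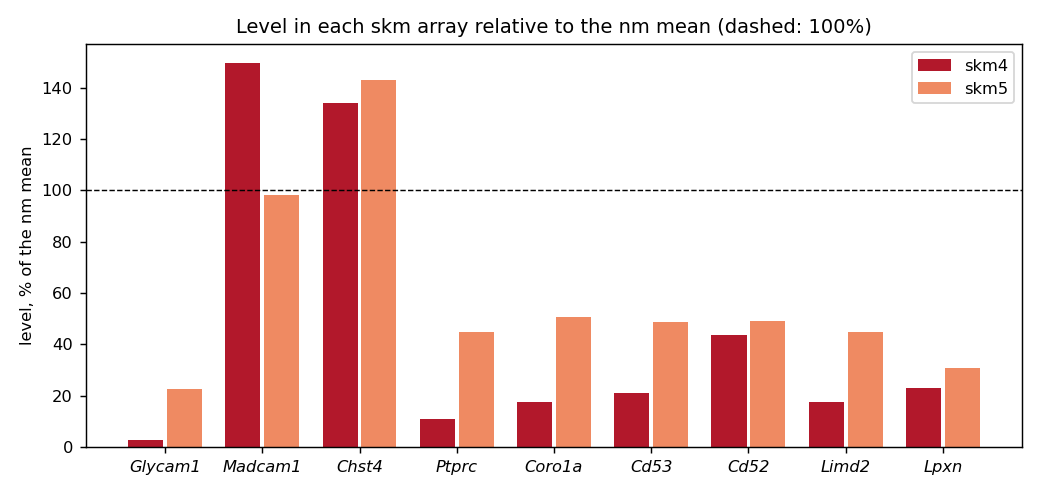
Level of each member in skm4 and skm5 as a percentage of its mean over the nm arrays (vertical axis, from 0), with a dashed line at the nm mean. In skm5 the leukocyte members lie between 30.8% and 50.7%, in skm4 between 10.8% and 43.8%, and Glycam1 is at 2.50% and 22.7%, while Chst4 lies above the line in both arrays.

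Members also differed in how closely their profiles matched. As a measure of likeness, each gene was centred on its mean over the 4 arrays, and the root mean square (RMS) difference between the centred values of 2 genes was taken. Coro1a and Limd2 differed by 0.08, Cd53 and Limd2 by 0.12 and Coro1a and Cd53 by 0.13, all on the log2 scale. The pairs with Limd2 rest on its brightest probe set, of SD 1.21. Its other probe sets had SDs of 0.59 and 0.34, so this closeness depends on the probe set. Ptprc lay at 0.29 from Coro1a, and Cd52 was nearest to Lpxn, at 0.42. Glycam1 was nearest to Ptprc among the members, at 0.88, and lay at 2.37 from Chst4 and 2.41 from Madcam1.

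Several probe sets were there for Coro1a and Limd2 and did not agree in size. For Coro1a, a second probe set read 5.70 in skm4 and 7.29 in skm5, against 8.74 in nm7 and 8.95 in nm8, a difference of -2.35 where the first gave -1.75. The last probe set of Coro1a was dim throughout, between 4.38 and 4.86, and overlapped between the prefixes. For Limd2, the probe set that stood for the gene is of a kind prone to cross-hybridization, and its SD over the 4 arrays was 1.21. The other probe sets of Limd2 had SDs of 0.59 and 0.34, with differences of -0.95 and -0.55 in the same order of arrays. With the mean of its probe sets the SD of Limd2 was 0.69. The other 7 members had 1 probe set each.

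The promoters of Ptprc and Cd53 are shown because they are the leukocyte members whose windows held the PU.1 core. Both lie on the minus strand, Ptprc at chr1:138175306-138175555, for the start site farthest upstream, and Cd53 at chr3:106790150-106790399, with the same build, length and capitals as for the addressins.
Ptprc: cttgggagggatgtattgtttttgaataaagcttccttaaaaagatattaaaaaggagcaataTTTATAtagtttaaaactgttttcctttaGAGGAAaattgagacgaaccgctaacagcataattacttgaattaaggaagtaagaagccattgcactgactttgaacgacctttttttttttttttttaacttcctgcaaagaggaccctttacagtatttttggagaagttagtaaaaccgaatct
Cd53: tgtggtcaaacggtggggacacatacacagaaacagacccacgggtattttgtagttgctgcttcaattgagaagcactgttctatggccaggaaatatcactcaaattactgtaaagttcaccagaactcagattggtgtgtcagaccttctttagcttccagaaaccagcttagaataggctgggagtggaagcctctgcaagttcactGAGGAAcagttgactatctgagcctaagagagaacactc
GAGGAA stood on the strand of the gene from 158 to 153 bases before the start site of Ptprc and from 39 to 34 bases before that of Cd53. It is found in 23.3% of all promoter windows. The Ptprc window also held TATAAA on the other strand, from 187 to 182 bases before the start site, which 12.4% of windows hold. In all, 8 of 9 members had 12 windows in the RefSeq table, and the windows of Chst4, Coro1a, Limd2 and Lpxn held none of these letters.

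Genes outside the set were ranked by the same RMS difference. Nearest to Glycam1 was Ms4a4b, a T cell membrane protein gene, at 0.37, with 5.09 in skm4 and 7.98 in skm5, against 9.24 in nm7 and 9.93 in nm8. It was followed by Cytip, a regulator of leukocyte adhesion, at 0.72, Ms4a1, which encodes the B cell antigen CD20, at 0.81, and Cd3g, which encodes the gamma subunit of CD3, at 1.06. Then came Tmem267 at 1.11, Ltb, a lymphotoxin subunit gene, at 1.13, Lep, the leptin gene of fat, at 1.14, and Serpina1b, a protease inhibitor gene, at 1.14. Ms4a4b and Ms4a1 have 2 probe sets each, and with their mean the SD was 1.11 in place of 2.14 for Ms4a4b and 1.17 in place of 1.60 for Ms4a1. Nearest to Ptprc was Ms4a1, at 0.08, with 4.85 in skm4 and 6.97 in skm5, against 8.23 in nm7 and 8.25 in nm8. The next were Cytip at 0.23, Ltb at 0.37, Serpina1b, the immunoglobulin gene Ighv14-2, Fermt3, which encodes an integrin activator of blood cells, and Il7r, a receptor chain for interleukin 7, each at 0.47, and Lep at 0.48. All of these are likenesses over 4 arrays and carry no test.

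**Figure D3:**
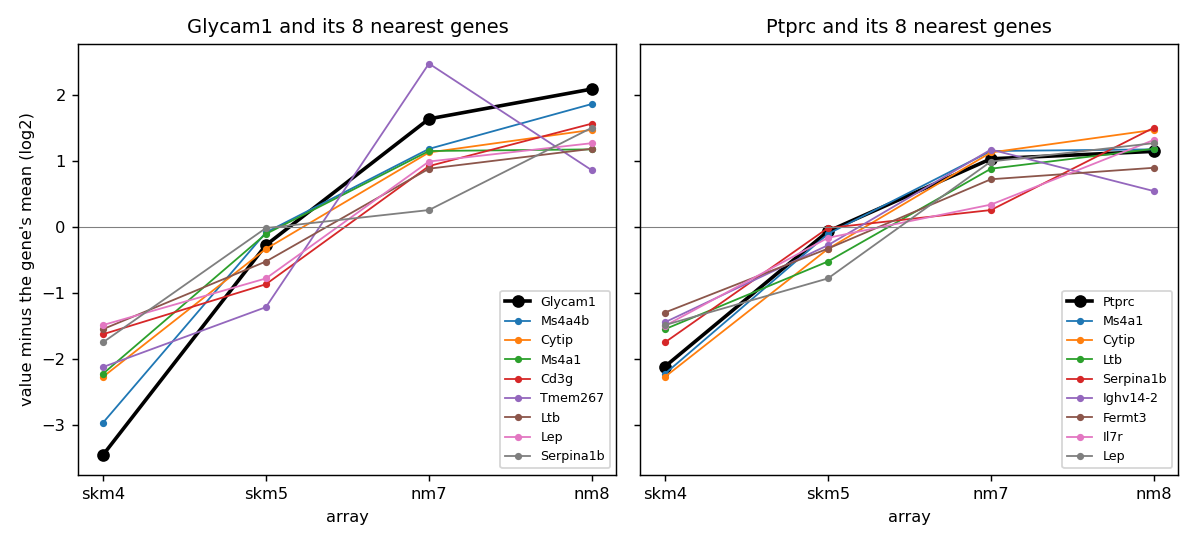
Value minus the gene's own mean (log2, vertical axis) on the 4 arrays for Glycam1 (left, black) and Ptprc (right, black) with the 8 genes nearest to each by RMS difference in colour. The lines join the values of 1 gene and imply no order among arrays; Ms4a1 lies at an RMS difference of 0.08 from Ptprc, and none of the 8 genes beside Glycam1 lies as far below its mean in skm4.

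The other genes of the homing pathway were read in the test between the prefixes, fitted with limma over all 12393 genes. It called 4 genes, 0.0323% of those tested, and none of them belongs to the 6 lists described next. The lowest adjusted p in these lists (limma) was 0.0506, just above the threshold of 0.05, for Pecam1, Ccr9 and Cd2. These lists and the marker lists below were chosen with earlier results of these data known. Their counts and p-values therefore describe these arrays and are no independent support. Among 15 measured addressin and selectin ligand genes, 0 passed, with 1 higher and 1 lower in skm at an unadjusted p under 0.05, against 10.6% and 13.0% of all genes. The list's median difference was 0.04. Selplg, which encodes the P-selectin ligand carried by leukocytes, read 7.41 in skm4 and 7.86 in skm5, against 8.25 in nm7 and 8.65 in nm8, a difference of -0.81 ± 0.21 (limma, adjusted p = 0.109). Ackr1, a chemokine-binding receptor of venules, differed by 0.39 ± 0.14, Fut4, a fucosyltransferase gene, by 0.20 ± 0.12 and Chst1, a sulfotransferase gene, by 0.19 ± 0.18. Chst2, Fut7 and Gcnt1, enzymes that with Chst4 build the sugars of high endothelial venules, were picked out with their values in view and differed by 0.07, -0.07 and 0.04.

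Of 17 measured homing receptor and adhesion genes, 0 passed limma's test, and 3 were lower and 1 higher at an unadjusted p under 0.05, against 13.0% and 10.6% of all genes. The median difference was -0.15, or 0.03 without skm4. Itgb2, the beta chain of the leukocyte integrins, read 6.42 in skm4 and 6.94 in skm5, against 7.59 in nm7 and 7.96 in nm8, a difference of -1.09 ± 0.22 (limma, adjusted p = 0.075). Itgb7, whose product pairs with alpha 4 to bind MAdCAM-1, differed by -0.73 ± 0.16, and Vcam1, a ligand of alpha 4 integrins on endothelium, by -0.62 ± 0.13. In the other direction stood Pecam1, an adhesion molecule of endothelium, at 1.31 ± 0.16 (limma, adjusted p = 0.0506). Pecam1 read 8.92 in skm4 and 9.29 in skm5, against 7.77 in nm7 and 7.83 in nm8.

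Of 15 measured genes of lymphoid chemokines, lymphotoxins and tissue exit, 0 passed limma's test, while 8 were lower and 1 higher at an unadjusted p under 0.05, against 13.0% and 10.6% of all genes. The median difference was -0.31. Ltb, whose product helps maintain high endothelial venules, read 6.42 in skm4 and 7.45 in skm5, against 8.85 in nm7 and 9.15 in nm8, a difference of -2.07 ± 0.34 (limma, adjusted p = 0.061). The chemokine receptor genes Cxcr5, Ccr7 and Ccr9, of B cells, naive T cells and gut-homing T cells, differed by -1.41 ± 0.24, -1.09 ± 0.30 and -1.08 ± 0.12.

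The other pan-leukocyte genes, 27 measured, had 0 members past limma's test, and 15 were lower and 0 higher at an unadjusted p under 0.05, against 13.0% and 10.6% of all genes. In all, 20 were lower in skm with no overlap and 1 higher, against 28.6% and 25.8% of all genes, and 14 were lower with no overlap and a range over 1, against 2.95% of all genes. The list's median difference was -0.75, and -0.46 without skm4. Cytip read 5.51 in skm4 and 7.44 in skm5, against 8.91 in nm7 and 9.25 in nm8, a difference of -2.60 ± 0.60 (limma, adjusted p = 0.091). Fermt3, whose SD over the 4 arrays was 1.02, and 0.49 with the mean of its 3 probe sets, differed by -1.62 ± 0.32. The difference was -1.33 ± 0.26 for Cd48, a surface receptor gene of leukocytes, and -1.24 ± 0.33 for Lcp1, an actin-bundling protein gene. With an intensity trend in the variance prior, 10 of the 27 passed, all lower, and 1110 of all 12393 genes did.

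Among 10 measured substrates and partners of CD45, 0 passed limma's test, and 4 were lower and 0 higher at an unadjusted p under 0.05, against 13.0% and 10.6% of all genes, with a median of -0.36. Cd2, an adhesion receptor gene of T cells, differed by -1.42 ± 0.16, Pag1, an adaptor gene that recruits the kinase Csk, by -1.07 ± 0.20, Cd22, an inhibitory receptor gene of B cells, by -0.71 ± 0.28 and Ptpn22, a phosphatase gene of lymphocytes, by -0.70 ± 0.24. The kinase genes Lck and Lyn were not analysed here. The 21 measured relatives of the members, such as other coronins, tetraspanins and receptor phosphatases, had 0 past limma's test and a median of 0.02. Among them, 2 were higher and 2 lower at an unadjusted p under 0.05, against 10.6% and 13.0% of all genes. The list was named for wide expression, which was not checked gene by gene. Coro1c read 7.39 in skm4 and 7.28 in skm5, against 6.87 in nm7 and 5.97 in nm8, a difference of 0.92 ± 0.30 opposite in sign to that of Coro1a. Ptprj, a receptor phosphatase gene, differed by -0.61 ± 0.18, Coro2b by -0.53 ± 0.18 and Coro6, a coronin gene, by 0.52 ± 0.16. The difference between the relatives and the members was not tested.

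**Figure D4:**
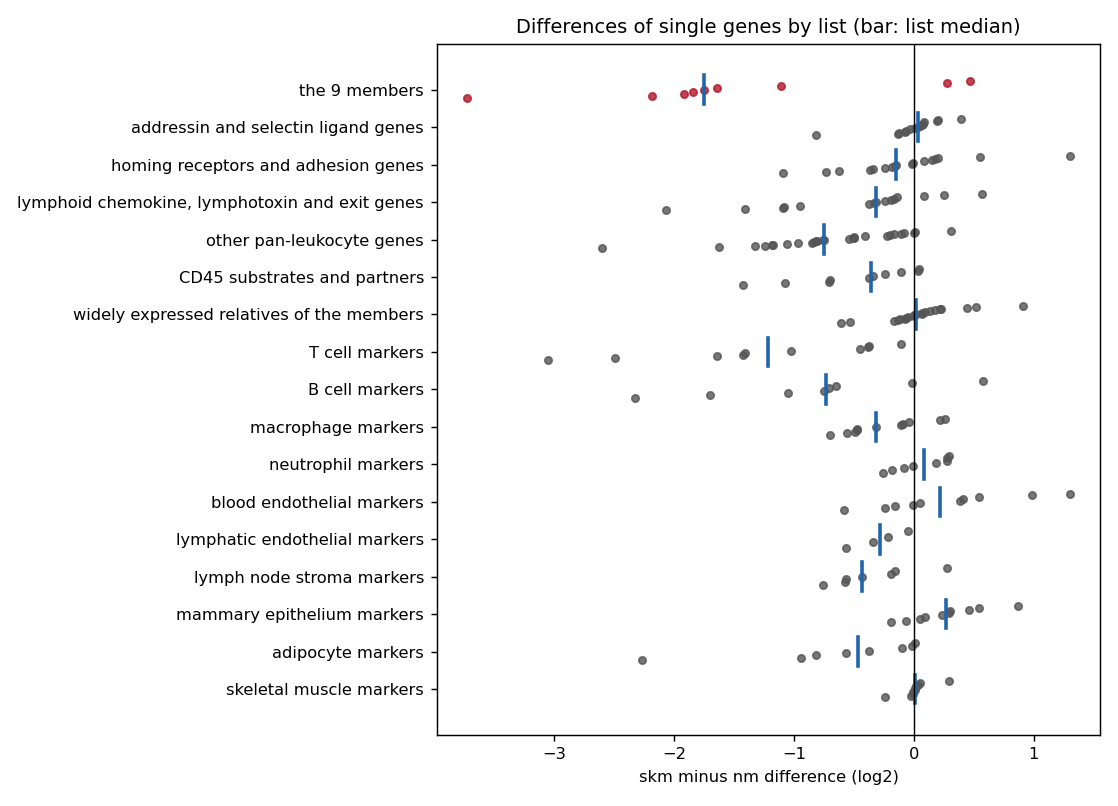
Difference skm minus nm (log2, horizontal axis) of each gene, 1 point per gene, for the 9 members (red) and for 16 lists, with a blue bar at each list's median. The members' median lies at -1.75, T cell markers at -1.22 and other pan-leukocyte genes at -0.75. Addressin genes lie at 0.04 and relatives of the members at 0.02.

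Markers of the cells that could carry these genes read as follows, and their part in the members' values was not tested. Over all genes, 28.6% were lower and 25.8% higher in skm with no overlap. All 10 measured T cell markers were lower in skm with no overlap, with a summed level, on the linear scale, of 716 in skm4 and 1091 in skm5, against 1927 in nm7 and 2611 in nm8. Of 8 B cell markers, 5 were lower and 1 higher with no overlap, and their sum was 687 in skm4 and 1164 in skm5, against 1633 in nm7 and 1763 in nm8. Both sums ranked the arrays as the 7 lower members did, as did the sums of adipocyte and lymph node stroma markers. Gene by gene, that order held for 9 of 10 T cell markers and 1 of 8 B cell markers. It held for 2 of 8 adipocyte markers and 1 of 7 lymph node stroma markers. A sum follows its brightest genes, and Clu was the brightest lymph node stroma marker on every array. Of 11 macrophage markers 4 were lower with no overlap and 0 higher, and the sum was 4796 in skm4 and 6728 in skm5, against 7326 in nm7 and 6999 in nm8. Neutrophil markers had 1 of 8 lower and 3 higher, with sums of 549 in skm4 and 667 in skm5, against 573 in nm7 and 636 in nm8.

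Vessel and stroma markers gave a mixed picture, and their counts too are to be read against the 28.6% lower and 25.8% higher of all genes with no overlap. Blood endothelial markers had 3 of 10 lower and 5 higher, and their sum was 6721 in skm4 and 7118 in skm5, against 5472 in nm7 and 5579 in nm8. Of 4 measured lymphatic endothelial markers, 2 were lower and 0 higher, with sums of 878 in skm4 and 961 in skm5, against 1329 in nm7 and 1165 in nm8, and their defining factor Prox1 was no brighter than the TrpnX probe sets on 4 of 4 arrays. Lymph node stroma markers had 4 of 7 lower and 0 higher, with sums of 2499 in skm4 and 2615 in skm5, against 3395 in nm7 and 3485 in nm8, and Cxcl13, their B cell attracting chemokine, overlapped at 7.04 and 7.81 in skm4 and skm5, against 7.44 and 7.80 in nm7 and nm8. Mammary epithelium markers, read because Glycam1 is made there too, had 0 of 10 lower and 4 higher, with sums of 479 in skm4 and 684 in skm5, against 437 in nm7 and 454 in nm8. Krt5, the brightest of these markers on every array, was higher by 0.87 ± 0.34. The casein genes Csn1s2a, Csn1s1 and Csn3 were higher with no overlap, by 0.30, 0.29 and 0.24. Csn2, the beta-casein gene, overlapped and read 4.66 in skm4 and 4.17 in skm5, against 4.25 in nm7 and 4.71 in nm8. Adipocyte markers had 4 of 8 lower and 0 higher, with sums of 23760 in skm4 and 30608 in skm5, against 34396 in nm7 and 37365 in nm8. Lep differed by -2.26 ± 0.26 (limma, adjusted p = 0.0506). The 10 skeletal muscle markers had 2 lower and 2 higher, and a median difference of 0.01.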

How the data were processed

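Per the submitters' processing notes, the authors made the deposited log2 values with RMA in Affymetrix Expression Console 1.1. RMA corrects background, equalises the arrays and summarises probes, and it compresses differences among dim values. The sources used here do not say which arrays were normalized together. Values from 2.80 to 14.76 showed the log2 scale. Of 22690 probe sets, 64 controls were left out, 20380 named 1 gene, 691 several and 1555 none. Symbols were updated by Entrez identifier through the RefSeq gene table of GRCm38.p6, and 29 probe sets kept the older one. No pair of arrays held identical values, and dim genes were kept.

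The skm minus nm difference was fitted with limma 3.58.1 in R 4.3.3 (lmFit, eBayes, 2 against 2, two-sided, Benjamini-Hochberg over 12393 genes, threshold 0.05), with 2 residual and 3.51 prior degrees of freedom, and the code was tested on simulated data. Nothing in the labels ties the arrays to separate animals, and a p-value here reflects the spread of these arrays alone, which may be technical. Members, the 16 lists and tests were chosen with earlier results of these data known. Named genes were the members, from each list up to 4 with the largest absolute difference, and the 8 genes nearest to Glycam1 and to Ptprc. Chst2, Fut7, Gcnt1, Csn1s1, Csn2, Csn3, Cxcl13, Cd3e, Itgal, Selp and Sele were added with their values in view. Of the marker lists, values are given by count and sum, with few genes named. Lists share 10 of their 181 measured genes. Not every gene of the lists is reported here. Promoter sequences are from RefSeq, GRCm38.p6. Alternatives were quantile normalization, median centring, the mean of probe sets, leaving out _x_at and _s_at probe sets, each array left out, a filter at the median level and an intensity trend. The lists' counts and medians with an array left out were added after seeing the data.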

Additional observations from a re-analysis of the deposited data

How the results depend on the processing

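Each member kept its sign of difference under every alternative run, except Madcam1, which ran from -0.024 without skm4 to 0.58 without skm5. The SD of Glycam1 ran from 1.26 without skm4 to 3.08 without skm5, and the SDs of Ptprc, Coro1a, Cd53 and Limd2 without skm4 were 0.67, 0.59, 0.62 and 0.69. Without _x_at and _s_at probe sets the SD of Limd2 was 0.59. The members with a range over 1 numbered 7 throughout, and those with no overlap 8 or 9. The 9 arose without skm5 and without nm8, where 1 array fewer makes no overlap easier to meet. The number of genes past limma's threshold, 4 as reported, was 186 with quantile normalization, 92 with the mean of probe sets, 142 without _x_at and _s_at probe sets, 1110 with an intensity trend, 1026 after a filter at the median level, and 0 to 15 with an array left out. Against 0 as reported, homing receptor genes had 1 call with quantile normalization, the mean of probe sets, without _x_at and _s_at probe sets and with the filter, and 2 with the trend. CD45 partners had 1 in each of the first 4 settings and 3 with the trend. Chemokine genes had 1 with quantile normalization and with the filter, 3 with the trend, and 0 to 1 with an array left out. Pan-leukocyte genes had 1 with quantile normalization, 4 with the filter, 10 with the trend, and 0 to 2 with an array left out. Addressin genes had 1 with the filter and relatives had 0 throughout. The homing receptor median ran from -0.23 without skm5 to 0.032 without skm4. Pan-leukocyte genes lower with no overlap numbered 21 to 23 of 27 with an array left out, and 20 with all arrays. The share of all genes lower with no overlap was then 38.4% to 41.2%, against 28.6% with all arrays, so the rule is looser there. The causes of these shifts were not tested. No paired analysis was possible because the samples form 1 group with no shared replicate numbers. The number of arrays and the dim values of Glycam1 and Lpxn in skm4 limit the precision.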

Other observations

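Some genes of the same kind as the members differed from them in the size or the spacing of their values. They were picked out with their values in view. Cd37, a leukocyte tetraspanin gene like Cd53, read 6.13 in skm4 and 7.55 in skm5, against 7.63 in nm7 and 7.55 in nm8, so that skm5 lay at the nm values and skm4 alone was low. Cd3e, the epsilon subunit of CD3, read 7.52 in skm4 and 7.56 in skm5, against 7.82 in nm7 and 8.02 in nm8, a difference of -0.38, where Cd3g differed by -2.49. Itgal, the alpha chain of the integrin LFA-1, read 5.96 in skm4 and 6.06 in skm5, against 6.17 in nm7 and 6.22 in nm8. Both Cd3e and Itgal kept the order and the lack of overlap of the lower members, at a smaller size. The selectin genes of endothelium, Selp and Sele, differed by 0.15 and 0.09.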
